A study of Mus musculus with 30 samples.

Results

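The genes of glycolysis and the TCA cycle were followed in 30 libraries of a mouse lymphoma line through 36 genes of the 55401 in the count table. They were taken from the table by name, from a list chosen with earlier results of these data known. The list held 2 glucose transporters, 9 genes of upper glycolysis (hexokinase to triosephosphate isomerase), 5 of lower glycolysis (Gapdh to pyruvate kinase), 4 of lactate production and export, 4 of the pyruvate dehydrogenase step and 12 of the TCA cycle. All 36 were found. The symbol Aldoa stood on 2 gene identifiers, with 231471 and 5 counts, and the first was used.

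Glycolysis splits glucose to pyruvate in the cytosol. Pyruvate is then either reduced to lactate by lactate dehydrogenase and exported by monocarboxylate transporters, or carried into the mitochondrion, turned into acetyl-CoA by the pyruvate dehydrogenase complex and burned in the TCA cycle. Many of these genes are textbook targets of MYC, which binds E-box motifs, and of the hypoxia factor HIF1, whose core motif overlaps the E-box. Myc-driven B-cell lymphomas are known for strong glycolysis with lactate output.

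The cells are B-lineage lymphoma cells of a mouse that carried the Eµ-Myc transgene, which expresses Myc from an immunoglobulin enhancer, and they lack p19ARF, a tumour suppressor upstream of p53. Every line shared this genotype, controls included. To select 17 paclitaxel resistant lines, 10000 cells of the parental line per well were exposed for 3 days to a dose of paclitaxel, a drug that stabilizes microtubules, chosen to kill 85%, recovered for 4 days without drug, and cycled in this way for 12 to 18 weeks. The 12 DMSO control lines went through the same cycles with solvent, and the parental line gave 1 library. Each line came from its own well, so lines count as replicates of a treatment, but all descend from 1 parental line.

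Libraries were made from the 3′ ends of RNA and counted per gene. Totals ranged from 1053948 to 6739131 counts in the DMSO control lines, from 480919 to 6682169 in the paclitaxel resistant lines, and came to 1851837 in the parental line. Levels are given as CPM, counts scaled to a common library size with TMM factors, and are therefore relative to all other RNA in a library. In bulk RNA, fewer cells of a type and less RNA per cell cannot be told apart. All 9 B-lineage markers passed the filter on low counts, with a summed level of 2569 to 5391 CPM, against 1 of 7 T and NK cell markers (0 to 19.4 CPM), 1 of 8 myeloid markers (2.83 to 50.8 CPM) and 0 of 6 stromal markers (0 to 1.45 CPM). Between treatments, 0 of the 9 B-lineage markers passed an adjusted p of 0.01 with edgeR's quasi-likelihood test and 2 did with its likelihood ratio test and with DESeq2, while 4 had an unadjusted p under 0.05, 3 of them lower in the resistant lines. Over all genes tested, 2.20%, 4.74% and 5.22% were called by these tests in that order, and 25.1% had an unadjusted p under 0.05. The part of this in the members' levels was not tested. By distance to the mean of each treatment over the tested genes other than the members, 4 libraries lay nearer to the other treatment than to their own: those labelled DMSO 11, DMSO 12, Pac C1 and Pac H9. DMSO 12 is the label just before the run of resistant line labels and Pac H9 is the last of that run. A displacement of the labels from DMSO 12 on by 1 library is possible and was not resolved here. In that case the libraries labelled DMSO 12 and Pac H9 would fall outside the treatments they are labelled with. The names of DMSO 12, of the resistant lines and of the parental library would belong to other libraries, so a name below stands for the library that carries that label. Comparisons of treatments are given with and without these libraries where that changes a call.

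**Figure D1:**
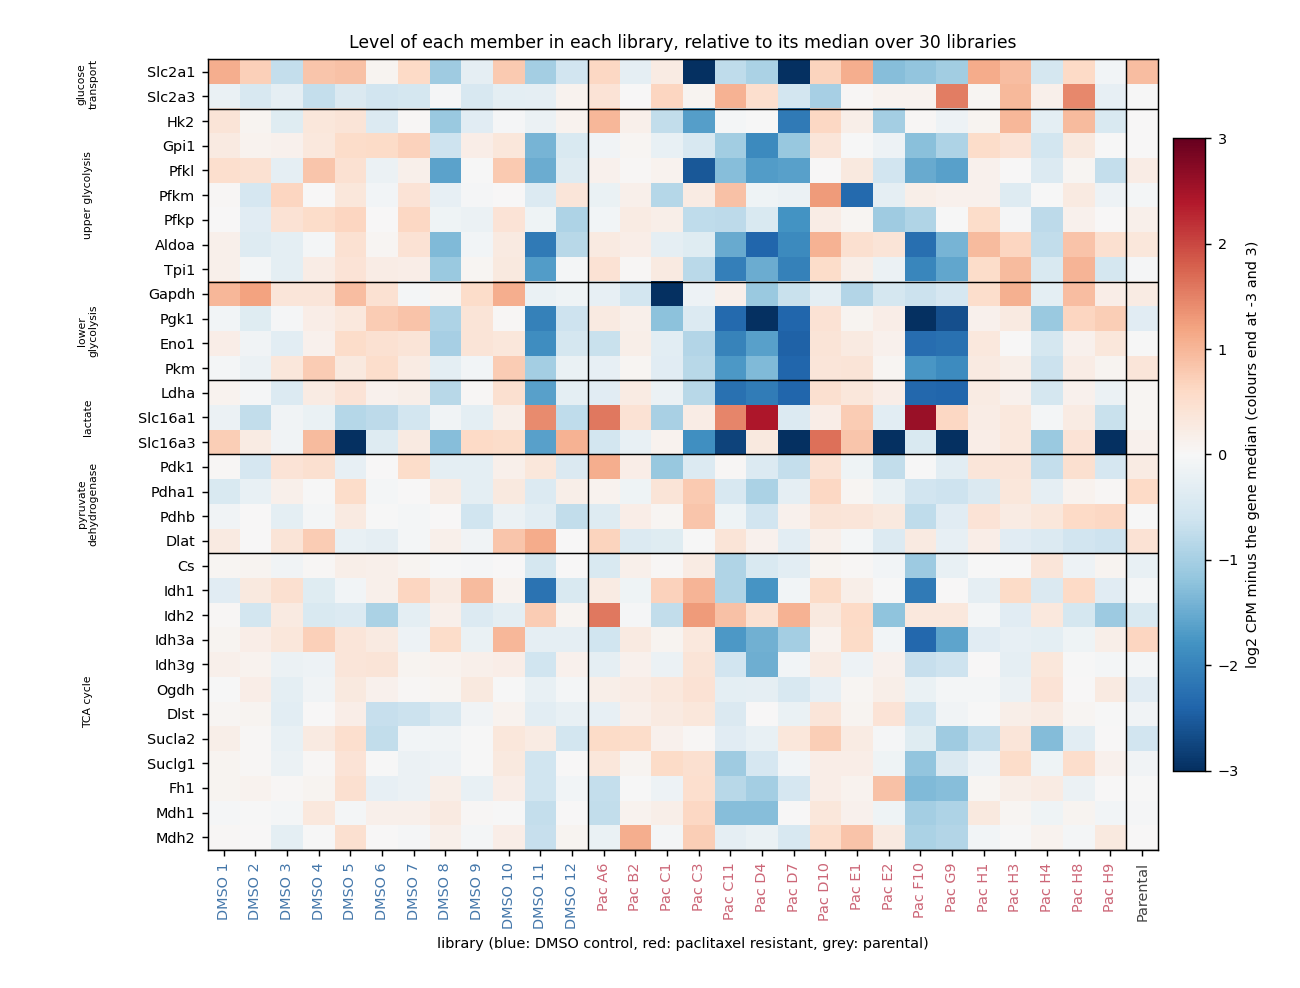
Log2 CPM of the 32 tested members (y axis, grouped by step) in each of the 30 libraries (x axis) minus the gene's median, with blue below and red above it. The libraries labelled Pac D7, Pac G9, Pac C11, Pac F10, Pac D4 and DMSO 11 are low across most of glycolysis and, more faintly, across much of the TCA cycle.

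The first comparison asked which of the members differed between paclitaxel resistant and DMSO control lines. No member passed the threshold of the study, an adjusted p under 0.01, with edgeR's quasi-likelihood test and Benjamini-Hochberg adjustment over 9445 genes. The study names edgeR but not which of its tests was used. Over all genes tested, 2.20% passed the threshold with the quasi-likelihood test, 0.995% higher and 1.21% lower in the resistant lines. The filter on low counts kept 32 of the 36 members. At an unadjusted p under 0.05 there were 8 members, 4 with higher and 4 with lower estimates, where 25.1% of all genes were under it. The median log2 difference (paclitaxel resistant minus DMSO control) was -0.09 over the 32 members and 0.07 over all genes, with 10 estimates above 0 and 22 below. DESeq2 and edgeR's likelihood ratio test each called 1 of the 32 members, Slc2a3, where they called 5.22% and 4.74% of all genes. Without the libraries labelled DMSO 12 and Pac H9 there was 1 call, Slc2a3, against 3.36% of all genes. Without the 4 libraries nearer to the other treatment, a choice that by its construction sets the treatments farther apart, there was 1 call, Slc16a1, against 5.11% of all genes.

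**Figure D2:**
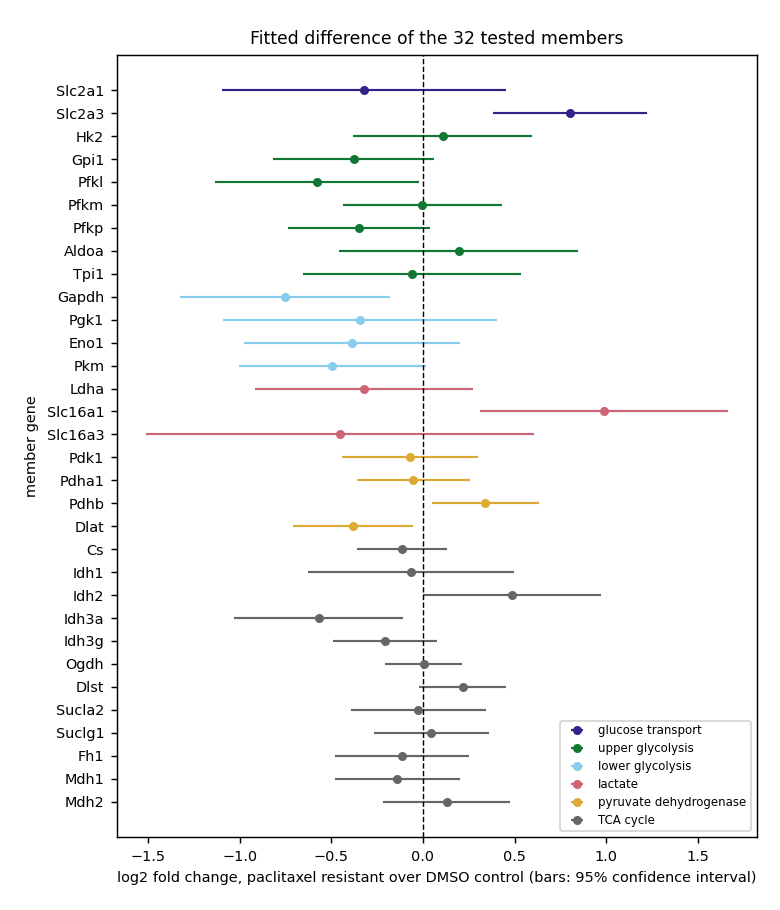
Fitted log2 fold change of each tested member, paclitaxel resistant over DMSO control, with its 95% confidence interval, coloured by step. The estimates of Slc2a3 and Slc16a1 lie farthest above 0, at 0.80 and 0.99, and that of Gapdh farthest below, at -0.75.

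Glucose enters through Slc2a1 (GLUT1) and Slc2a3 (GLUT3), and neither passed the threshold. Slc2a3 (chromosome 6, 122727809 to 122801640, GRCm38) ranged from 17.7 to 31.1 CPM with a median of 22.7 in the DMSO control lines and from 14.4 to 85.4 with a median of 31.3 in the paclitaxel resistant lines. Of the 17 resistant lines, 10 lay above every DMSO control line, led by Pac G9 at 85.4 and Pac H8 at 79.7 CPM, and Pac D10 lay below them all. Over all genes, 1.90% had at least 10 resistant lines above every control line. The mean was 23.1 ± 3.95 CPM (SD, n = 12) against 40.1 ± 19.9 (SD, n = 17), a log2 difference of 0.80 (SE 0.207), and the adjusted p of edgeR's quasi-likelihood test was 0.0154. It was the only member under an adjusted p of 0.05, where 7.55% of all genes lay. A single library decided the call at 0.01, since the adjusted p was 0.00950 without Pac D7 and 0.00684 without Pac D10 (same edgeR test). Without DMSO 12 and Pac H9 it was 0.00893.

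Slc2a1 (chromosome 4, 119108711 to 119137983) ranged from 8.76 to 40.8 CPM (median 24.5) in the DMSO control lines and from 0 to 41.9 CPM (median 15.7) in the resistant lines. The groups overlapped across nearly the whole range, and the log2 difference of -0.32 (SE 0.381) had an adjusted p of 0.625 (edgeR). In Pac C3, 0 of 1222823 counts fell on Slc2a1, which allows up to 2.55 CPM at a floor of 3 counts, and Pac D7 held 5 counts (1.41 CPM). The parental line stood at 36.7 CPM.

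Upper glycolysis begins with hexokinase, which traps glucose in the cell. The transcripts came from Hk2, with 7862 counts in all, while Hk1 had 6. Hk2 (chromosome 6, 82725025 to 82774454) had medians of 73.0 CPM in the DMSO control lines (33.6 to 96.3) and 72.0 in the resistant lines (16.3 to 146.7). Pac H3, Pac A6, Pac H8 and Pac D10 lay above every DMSO control line and Pac D7 and Pac C3 below, and the log2 difference was 0.11 (SE 0.240, adjusted p = 0.810, edgeR). Of the 3 phosphofructokinase genes, which encode the committed step, Pfkl (chromosome 10, 77986947 to 78010083) had the lowest p. It ranged from 16.9 to 94.4 CPM (median 55.5) in the DMSO control lines and from 8.51 to 64.0 CPM (median 39.0) in the resistant lines. Its log2 difference was -0.58 (SE 0.274) and its adjusted p 0.184 (edgeR). Pfkp had medians of 413.1 and 401.0 CPM and Pfkm of 34.2 and 34.1, in the same order of groups.

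Aldoa, the aldolase of these cells, spanned 493.2 to 5310 CPM over the resistant lines, against 590.7 to 3523 in the DMSO control lines, and 6 resistant lines lay above every control line while Pac D4 and Pac F10 lay below. The wide spread on both sides left a log2 difference of 0.19 (SE 0.321, adjusted p = 0.734, edgeR). Aldoc, the brain-type aldolase, was too low to test, with 274 counts over 30 libraries. It stood at 20.9 CPM in DMSO 5 and 17.5 in DMSO 1 and at 7.20 or less in every other library, 12 of which had no count. Gpi1, which interconverts the hexose phosphates, had medians of 1087 and 827.5 CPM (DMSO control, paclitaxel resistant), and Tpi1, which interconverts the triose phosphates, of 1137 and 936.1. Neither passed the test, with adjusted p values of 0.275 and 0.917 (edgeR).

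In lower glycolysis, Gapdh, which makes NADH, was the member with the most negative estimate. It had 471 counts in all, from 3.33 to 9.67 CPM (median 5.34) in the DMSO control lines and from 0 to 8.68 CPM (median 3.07) in the resistant lines, and 11 of the 17 resistant lines lay below every control line, as 2.63% of all genes had at least 10 there. The log2 difference was -0.75 (SE 0.282), with an adjusted p of 0.0924 (edgeR). The 0 was in Pac C1, the smallest library, where the floor of 3 counts allows 6.23 CPM. Of the 50-base windows in the last 500 bases of Gapdh transcripts (gencode M21), 63.2% were also found in transcripts of other loci, 201 genes in number, so a read from such a window does not identify 1 locus and may be missing from the level printed here. Eno1 had 68.1% of such windows elsewhere, Gpi1 36.9%, Ldhb 29.2%, Pkm 19.3%, Ldha 12.8%, Aldoa 12.7%, Tpi1 10.3%, Pdhb 8.87% and Pgk1 7.32%. Summing Eno1 with its near-identical copy Eno1b left the log2 difference of Eno1 at -0.39 (adjusted p = 0.414, edgeR).

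Pgk1, the first ATP-making step of the pathway and a common reference gene for quantitative PCR, used as such in this study, varied widely among lines. It ranged from 49.7 to 371.1 CPM (median 205.9) in the DMSO control lines and from 19.6 to 343.7 CPM (median 219.5) in the resistant lines. Pac F10 (19.6), Pac D4 (20.3), Pac G9 (32.8), Pac D7 (38.8) and Pac C11 (40.6) lay below every control line, and DMSO 11 was the lowest control. The log2 difference was -0.34 (SE 0.369, adjusted p = 0.586, edgeR), and over the alternative settings it ran from -0.57 with log10 total counts as a covariate to -0.017 without the 7 libraries beyond a gap on the first principal component, described below. Pgam1, which moves the phosphate of phosphoglycerate, had 152 counts in all, at most 16 in a library, and was too low to test. None of its 3′ windows was found in another locus. Eno1 (enolase) had medians of 2433 and 1742 CPM and Pkm (pyruvate kinase) of 3280 and 2578, and their log2 differences of -0.39 and -0.50 had adjusted p values of 0.413 and 0.212 (edgeR).

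**Figure D3:**
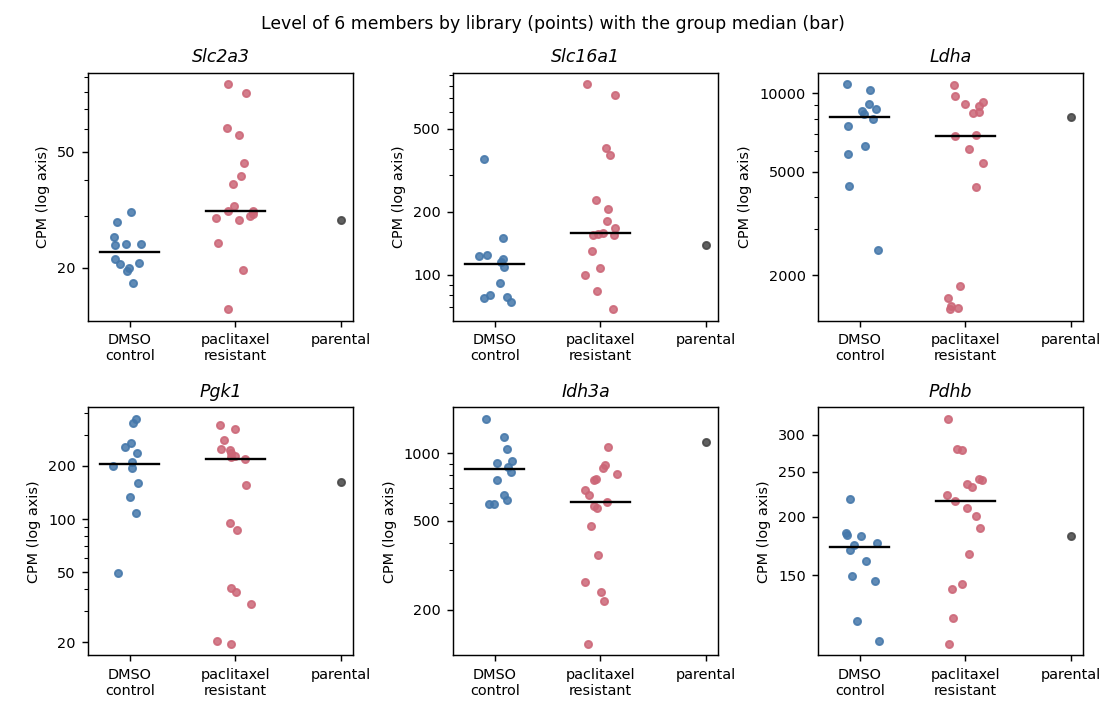
CPM (log axis) of 6 members in each library, by treatment, with the group median as a bar and the parental line as a single point. For Slc2a3, 10 of 17 resistant lines lie above all DMSO control lines. For Ldha and Pgk1, 5 resistant lines and, next above them, the control line DMSO 11 are the 6 lowest.

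Ldha, the lactate dehydrogenase of these cells (chromosome 7, 46841475 to 46855627), ranged from 2512 to 10863 CPM (median 8147) in the DMSO control lines and from 1478 to 10792 CPM (median 6861) in the resistant lines. Ldhb had 0 counts in every library, but 29.2% of its 3′ windows were also found in another locus, and reads from these may be missing. For Ldha, the treatments did not differ beyond the spread (log2 difference -0.32, SE 0.293, adjusted p = 0.509, edgeR), but the lines did not form a single cloud. Pac D7 (1478), Pac G9 (1502), Pac F10 (1519), Pac C11 (1630), Pac D4 (1819) and DMSO 11 (2512) were the 6 lowest, and the next was Pac C3 at 4350 CPM.

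Lactate leaves the cell through Slc16a1 (MCT1) and Slc16a3 (MCT4). Slc16a1 (chromosome 3, 104638668 to 104658462) ranged from 74.3 to 357.1 CPM (median 112.6) in the DMSO control lines and from 68.5 to 815.6 CPM (median 159.4) in the resistant lines. Pac F10 (815.6), Pac D4 (721.9), Pac A6 (403.7) and Pac C11 (371.9) lay above every control line, the highest control being DMSO 11 at 357.1 and the next DMSO 10 at 150.9. The log2 difference was 0.99 (SE 0.332) with an adjusted p of 0.0620 (edgeR). Without the 4 libraries nearer to the other treatment it was 1.32 with an adjusted p of 0.00557 (same edgeR test), and without DMSO 11 and Pac C3 the adjusted p was 0.0104. The 4 lines above all controls lay beyond the gap on the first principal component described below, and without the 7 libraries beyond it the log2 difference was 0.50, with an adjusted p of 0.0591 (same edgeR test).

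Slc16a3 (chromosome 11, 120948480 to 120960868) was the member with the widest spread among lines. It ranged from 1.13 to 60.3 CPM (median 34.7) in the DMSO control lines and from 0.637 to 92.4 CPM (median 20.8) in the resistant lines. It was nearly silent in a few lines of both treatments: DMSO 5 held 4 counts (1.13 CPM), Pac G9 4 (0.637), Pac E2 4 (0.913), Pac D7 3 (0.844) and Pac H9 3 (2.70). The log2 difference was -0.45 (SE 0.520, adjusted p = 0.612, edgeR), and it ran from -0.71 without Pac D10 to -0.22 without the 7 libraries beyond the gap.

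At the pyruvate dehydrogenase step, the estimates of the subunit genes differed in sign, and none passed the threshold. Pdhb, the E1 beta subunit (chromosome 14, 8165996 to 8173025), ranged from 108.5 to 218.7 CPM (median 172.1) in the DMSO control lines and from 106.7 to 325.1 CPM (median 216.1) in the resistant lines, 8 of which lay above every control line, as 4.79% of all genes had at least 8 there. Its log2 difference was 0.34 (SE 0.144, adjusted p = 0.137, edgeR). Dlat, the E2 subunit (chromosome 9, 50634633 to 50659780), ranged from 33.6 to 88.2 CPM (median 43.1) in the controls and from 26.1 to 64.7 CPM (median 34.1) in the resistant lines, with 8 below every control line, where 5.84% of all genes had at least 8. Its log2 difference was -0.38 (SE 0.160) with an adjusted p of 0.135 (edgeR). Pdha1, the E1 alpha subunit, and Pdk1, the kinase that switches the complex off, had log2 differences of -0.05 and -0.07 (adjusted p = 0.857 and 0.841, edgeR). Without the 7 libraries beyond a gap on the first principal component, described below, Pdhb passed the threshold (log2 difference 0.55, adjusted p = 0.00324, same edgeR test), the only member to do so, as 2.70% of all genes did.

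The TCA cycle genes varied less between lines than those of glycolysis. The median SD of log2 CPM over the 29 selected lines was 0.47 for the 12 TCA cycle genes and 0.42 for the pyruvate dehydrogenase step, against 0.90 for lower glycolysis, 0.71 for upper glycolysis and 0.63 for all genes tested. Idh3a, the catalytic subunit of the NAD-dependent isocitrate dehydrogenase (chromosome 9, 54586334 to 54604661), had the lowest p. It ranged from 594.7 to 1429 CPM (median 848.6) in the DMSO control lines and from 141.0 to 1069 CPM (median 608.1) in the resistant lines, 8 of which lay below every control line, as 5.84% of all genes had at least 8 there. The log2 difference was -0.57 (SE 0.227, adjusted p = 0.116, edgeR), and without the 7 libraries beyond the gap it was -0.24 (adjusted p = 0.318, same edgeR test). Idh2, the mitochondrial NADP-dependent isocitrate dehydrogenase (chromosome 7, 80094846 to 80115392), ranged from 26.7 to 89.2 CPM (median 42.6) in the controls and from 22.4 to 157.0 CPM (median 64.8) in the resistant lines, with a log2 difference of 0.49 (SE 0.239, adjusted p = 0.199, edgeR). Ogdh, the E1 subunit of the oxoglutarate dehydrogenase complex, had the estimate closest to 0 of the 12, at 0.003 (95% confidence interval -0.21 to 0.21). The intervals of Cs (-0.36 to 0.13), Sucla2 (-0.39 to 0.34), Suclg1 (-0.27 to 0.36), Fh1 (-0.48 to 0.25), Mdh1 (-0.48 to 0.20) and Mdh2 (-0.22 to 0.48) all left out a doubling in either direction.

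The clearest structure among the members lay between lines and not between treatments. The 6 libraries lowest in Ldha, 5 paclitaxel resistant lines and DMSO 11, were also exactly the 6 lowest of Gpi1, Aldoa, Tpi1, Pgk1, Eno1 and Pkm, that is, of 6 of the other 31 tested members. Over all tested genes, 1.44% had these same 6 libraries lowest. At least 5 of the 6 were among the lowest 6 for 13 of the 31 members, where 8.00% of all genes reached this. These 13 comprised the 6 glycolysis genes above and 7 of the 12 TCA cycle genes, Cs, Idh3a, Idh3g, Suclg1, Fh1, Mdh1 and Mdh2. At the other end, 0 of the 31 members had 5 or more of the 6 among their highest 6, where 9.84% of all genes did. Ldha was chosen as the yardstick after its values were seen, so these are descriptions of rank order with no test. With library totals in place of TMM factors, 4 of the 31 members shared all 6 libraries in place of 6, and 10 in place of 13 shared 5 or 6, as 4.55% of all genes did.

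Hk2, Pfkm, Pdk1 and Sucla2 each had 1 of the 6 libraries among their lowest 6, as did Slc2a3, and Slc16a1, Dlat and Idh2 had 0. Over all genes, 18.6% shared 1 library and 40.9% shared 0, against 5 (16.1%) and 3 (9.68%) of the 31 members. Slc16a1 was high in part of them, with 4 of the 6 (DMSO 11, Pac C11, Pac D4 and Pac F10) among its highest 6, as 22.9% of all genes had at least 4 there. The line Pac D7 was low in Slc16a1 too, at 99.9 CPM, and was the lowest of the resistant lines in Hk2 and Pfkp.

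**Figure D4:**
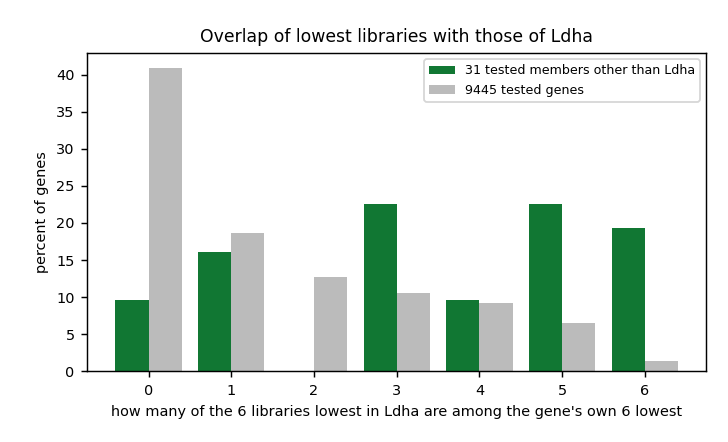
Percent of genes (y axis) by how many of the 6 libraries lowest in Ldha are among the gene's own 6 lowest (x axis), for the 31 other tested members (green) and all 9445 tested genes (grey). Of the members, 6 share all 6 libraries (19.4%), against 1.44% of all genes.

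The 6 libraries were not shallow, at 3263532 to 6739131 counts. All lay beyond the widest gap on the first principal component of the genes other than the members (23.7% of variance, gap from 0.89 to 43.3), together with Pac A6, in which Ldha stood at 6117 CPM. After thinning every library to 480919 counts they held 11312 to 12272 genes with a count, and the other libraries 9852 to 11079. The mitochondrial share of counts was 12.4% in DMSO 11, 11.9% in Pac D4 and 10.1% in Pac C11, but 3.84% in Pac G9, 3.20% in Pac D7 and 2.29% in Pac F10, with a highest value of 7.39% in the other libraries. Of the 9 B-lineage markers, 0 had 5 or more of the 6 among their lowest 6 and 1, Pax5, had 5 among its highest. The part of these differences in the low glycolytic levels was not tested.

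The 14 glycolysis members together took 0.400 to 1.40% of counts in the DMSO control lines (median 1.11%), 0.282 to 1.56% in the resistant lines (median 1.07%) and 1.11% in the parental line. The lowest shares were in Pac D7, Pac F10, Pac D4, Pac C11, DMSO 11 and Pac G9, from 0.282 to 0.433%, and the next was DMSO 8 at 0.563%. The 12 TCA cycle members took 0.393 to 0.662% (median 0.549%) in the controls and 0.339 to 0.789% (median 0.568%) in the resistant lines. The TCA cycle share was as large as the glycolysis share or larger in Pac D7, Pac D4, DMSO 8 and Pac C3.

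**Figure D5:**
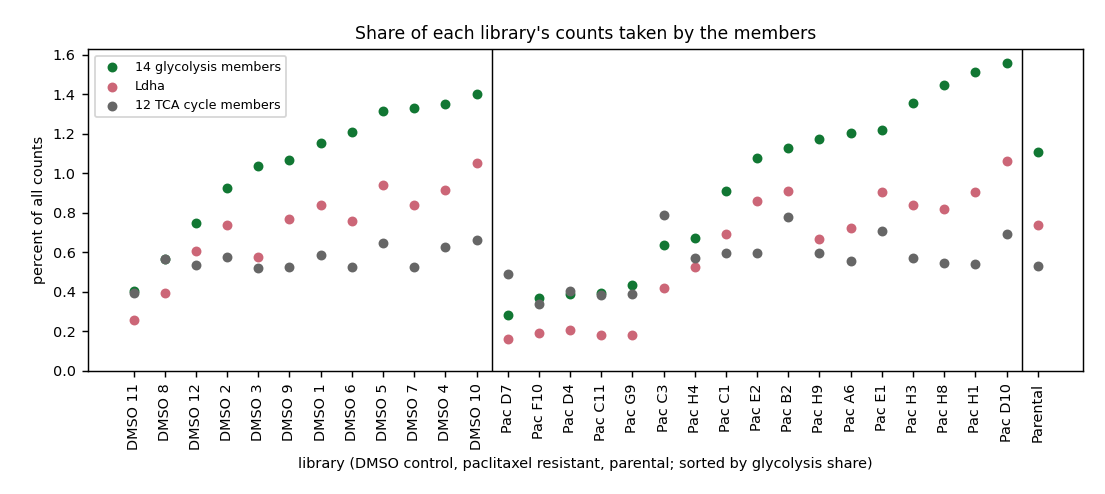
Percent of each library's counts (y axis) taken by the 14 glycolysis members, by Ldha and by the 12 TCA cycle members, with libraries sorted by glycolysis share within DMSO control, paclitaxel resistant and parental. Glycolysis runs from 0.282% in Pac D7 to 1.56% in Pac D10, while the TCA cycle stays between 0.339% and 0.789%.

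Promoter sequences are shown for 3 genes that carry the pattern among lines: Ldha and Pgk1, low in the 6 libraries, and Slc16a1, high in 4 of the 6. They are the 250 bases before a start site in RefSeq (GRCm38.p6), all on the plus strand, and capitals mark the E-box, CACGTG, and the hypoxia core, ACGTG, which reads CACGT where it lies on the other strand. An E-box also holds the core on both strands.
Ldha chr7:46845554-46845803: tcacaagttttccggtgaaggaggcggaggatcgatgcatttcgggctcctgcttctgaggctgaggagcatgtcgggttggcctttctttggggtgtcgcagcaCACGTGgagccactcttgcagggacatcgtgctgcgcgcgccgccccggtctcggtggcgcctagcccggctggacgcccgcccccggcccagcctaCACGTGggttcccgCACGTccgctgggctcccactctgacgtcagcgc
Pgk1 chrX:106186850-106187099: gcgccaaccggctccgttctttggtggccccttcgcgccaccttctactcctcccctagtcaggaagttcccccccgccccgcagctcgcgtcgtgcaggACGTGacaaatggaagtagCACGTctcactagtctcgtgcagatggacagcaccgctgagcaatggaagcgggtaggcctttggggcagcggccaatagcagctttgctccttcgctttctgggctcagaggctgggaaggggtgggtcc
Slc16a1 chr3:104638414-104638663: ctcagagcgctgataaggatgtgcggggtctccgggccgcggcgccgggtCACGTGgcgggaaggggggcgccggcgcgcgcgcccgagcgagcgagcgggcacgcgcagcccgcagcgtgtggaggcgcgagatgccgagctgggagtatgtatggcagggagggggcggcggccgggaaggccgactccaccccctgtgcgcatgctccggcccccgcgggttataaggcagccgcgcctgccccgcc

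RefSeq gives 2 promoters for Ldha, and no gencode M21 transcript began within the window of the one printed, while the other held neither motif. Promoters were matched for 34 of the 36 members, all but Slc2a3 and Idh3a, with 52 start sites in all. The E-box stood in 6 of the 52, in 4 genes (Ldha, Ogdh, Pfkm and Slc16a1), and in 6.02% of 32851 promoters of the same length. The core ACGTG, on either strand and E-boxes included, stood in 21 of the 52, in 14 genes, and in 16.6% of all promoters. Start sites of a gene overlap in part, and a match is a description of the letters. Of the 6 genes that shared all 6 low libraries with Ldha, Aldoa, Pgk1 and Pkm held the core and Eno1, Gpi1 and Tpi1 did not. Slc16a1 held the E-box.

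Pairs of isozymes or transporters were compared as log2 ratios within a library, to see whether the lines had switched from the one to the other. Of 7 planned pairs, 4 had both partners tested, and none of these passed 0.05 after adjustment over the 7 (two-sided permutation test, 100000 resamples). Slc2a1 over Slc2a3 had a mean log2 ratio of -0.14 ± 0.95 (SD, n = 12) in the DMSO control lines and -1.45 ± 1.67 (SD, n = 17) in the resistant lines, a difference of -1.31 (permutation p = 0.0152, adjusted p = 0.0843). Slc16a3 over Slc16a1 had -2.20 ± 1.64 (SD, n = 12) and -3.86 ± 2.00 (SD, n = 17), a difference of -1.66 (permutation p = 0.0241, adjusted p = 0.0843). The ratios of Pfkp over Pfkl and of Idh2 over Idh1 differed by 0.21 and 0.43 (adjusted permutation p = 0.755 for both). Without the 4 libraries nearer to the other treatment, the differences of the glucose transporter, lactate transporter and Idh2 pairs were -1.64, -1.91 and 0.99, each with an adjusted permutation p of 0.0330. This choice by its construction sets the treatments farther apart. It left out DMSO 11, the control line highest in Idh2 (89.2 CPM) and lowest in Idh1 (4.20 CPM).

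Genes of the same pathways outside the 36 held the calls. Among 39 other genes of pyruvate and TCA metabolism, 33 were tested and 5 passed the threshold, 3 higher and 2 lower, where 2.20% of all genes passed. Sdhaf1, an assembly factor of succinate dehydrogenase, was at 5.19 ± 1.55 CPM (SD, n = 12) in the DMSO control lines and 17.1 ± 7.92 (SD, n = 17) in the resistant lines, with 14 of 17 above every control line (log2 difference 1.71, SE 0.240, adjusted p = 3.28e-05, edgeR). Sdhaf2, which inserts the FAD cofactor into the same enzyme, went the other way, from 242.7 ± 45.0 to 152.1 ± 49.4 CPM, with 9 of 17 below every control line (log2 difference -0.68, SE 0.155, adjusted p = 0.00644, edgeR). Over all genes, 1.90% had at least 10 resistant lines above every control line, and 5.84% had at least 8 below. Idh3b, the partner subunit of Idh3a, rose by 0.58 (SE 0.118, adjusted p = 0.00257, edgeR), with 13 of 17 resistant lines above every control line. The Idh3 enzyme therefore had 1 subunit gene called higher, and Idh3a and Idh3g with estimates of -0.57 and -0.21 that did not pass.

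Pcx, pyruvate carboxylase, which refills oxaloacetate, fell from 16.1 ± 5.28 to 7.46 ± 3.66 CPM (log2 difference -1.15, SE 0.248, adjusted p = 0.00408, edgeR). Slc25a10, the mitochondrial dicarboxylate carrier, rose from 12.9 ± 3.16 to 25.2 ± 12.99 CPM (log2 difference 0.95, SE 0.222, adjusted p = 0.00764, edgeR). Over 12 or 13 alternative settings, Sdhaf1 and Sdhaf2 passed in all of those in which they were tested, Idh3b in 12 of 13, Pcx in 11 of 12 and Slc25a10 in 8 of 13.

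Among 36 other genes of glycolysis and lactate, 15 were tested and 0 passed with edgeR's quasi-likelihood test. An unadjusted p under 0.05 was found for 4 of the 15 (26.7%, against 25.1% of all genes), and DESeq2 and the likelihood ratio test each called 1 (6.67%, against 5.22% and 4.74% of all genes), so these shares lay near those of all genes. The lowest was that of Slc2a6 (GLUT6), a glucose transporter, at 7.46 ± 5.89 and 20.4 ± 13.9 CPM (log2 difference 1.52, adjusted p = 0.0159, edgeR), which passed under 5 of 12 alternative settings. Eno3 (0.95, adjusted p = 0.0647) and Bpgm (0.87, adjusted p = 0.0686) followed and passed under 0 of 13 and 0 of 12. At least 5 of the 6 libraries lowest in Ldha were among the lowest 6 for 2 of these 15 genes. The same held for 7 of the 33 other pyruvate and TCA genes, where 8.00% of all genes reached this. Among the highest 6 it held for 0 of the 15 and 3 of the 33, where 9.84% of all genes did.

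The regulators were tested for 18 of 23 genes, with 0 calls by edgeR's quasi-likelihood test. Of the 18, 7 (38.9%) had an unadjusted p under 0.05, as 25.1% of all genes did, and DESeq2 and the likelihood ratio test each called 2 (11.1%), against 5.22% and 4.74% of all genes. Arnt, the partner of HIF1 alpha, came nearest (log2 difference 0.86, adjusted p = 0.0103, passing under 7 of 13 alternatives), then Foxk2 (1.02, adjusted p = 0.0251, passing under 5 of 12) and Myc (0.47, adjusted p = 0.0517, passing under 0 of 13). Myc stood at 840.4 ± 126.3 CPM (SD, n = 12) in the DMSO control lines and 1165 ± 505.2 (SD, n = 17) in the resistant lines. Transcripts of the Eµ-Myc transgene and of the endogenous gene were not told apart in this level. For 5 of the 18 regulators, Hif1a, Txnip, Mlxip, Foxk1 and Foxk2, at least 5 of the 6 libraries lowest in Ldha were among the 6 highest, as for 9.84% of all genes, and for 0 of the 18 among the lowest. Txnip restrains glucose uptake.

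Further HIF1 targets, of which Pfkfb4 is also among the other glycolysis genes above, were tested for 13 of 20 genes, with 0 calls by edgeR's quasi-likelihood test, its likelihood ratio test and DESeq2, which called 2.20%, 4.74% and 5.22% of all genes. The 3 with an unadjusted p under 0.05 were 23.1% of the list, no larger a share than the 25.1% of all genes. They were Higd1a (log2 difference -0.74, adjusted p = 0.0627, edgeR), the mitophagy receptor Bnip3 (-1.42, adjusted p = 0.0757) and Fam162a (-0.64, adjusted p = 0.173). Of the 13, Ankrd37, Bnip3, Higd1a, Fam162a and Selenbp1 had at least 5 of the 6 libraries among their lowest 6, where 8.00% of all genes did. Common reference genes, a list that shares Gapdh and Pgk1 with the members, were not level across the 6 libraries either: 6 of 16, with Pgk1 and Ppia at all 6, had at least 5 of them lowest. Between treatments, 0 of the 16 passed with either edgeR test or DESeq2, and 3 (18.8%) had an unadjusted p under 0.05, a smaller share than the 25.1% of all genes.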

How the data were processed

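3′-end digital gene expression libraries of 30 lines were sequenced in 2 subpools, with molecular identifiers. Reads were mapped by the authors as single ends to GRCm38 (STAR 2.5.1b), and the whole-number counts per gene were deposited without normalization. Collapsing of identifiers and subpool membership are not given in the sources used here, so counts may include PCR copies and this batch was not modelled. Treatments come from the labels, and 0 columns were left unused. No library was a copy of another: even the most similar pair of a group had a chi-square per gene of 5.75.

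From the deposited counts, edgeR 4.0.16 (R 4.3.3) with TMM factors, its filterByExpr filter and its quasi-likelihood F test, at a Benjamini-Hochberg adjusted p under 0.01, compared 17 paclitaxel resistant with 12 DMSO control lines, the parental library outside the fit. Log2 values used a prior count of 2. Ratios were tested in Python 3.11.15 with scipy 1.17.1, and adjusted over 7 planned pairs, the 3 with an untested partner counted as p = 1. Gene positions and transcripts were gencode M21, where the methods name M25. In simulated counts of this comparison (9212 genes), 46 of 50 genes raised 4-fold, 40 of 44 lowered 4-fold, 20 of 49 raised 2-fold and 18 of 46 lowered 2-fold were recovered, with 1 false call among 9023. The simulated counts were drawn independently, without libraries that vary together or displaced labels, so these rates may not hold for the real libraries.

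The members, lists and tests were chosen with earlier results of these data known. Values were given for members past the threshold, the 4 lowest p in each direction, Gapdh, Pgk1, Slc2a1, Hk2, Ldha and members with a library over 3 log2 units from the median of the others. Of other lists, called genes or the 3 lowest p were named, with further genes named for their order of libraries after it was seen. Alternatives were other tests, scalings, filters and library sets. Leaving out the 4 libraries nearer to the other treatment, the 7 beyond the gap or each library in turn was chosen after seeing the data.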

Additional observations from a re-analysis of the deposited data

How the results depend on the processing

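The count of members called, 0, became 1 with edgeR's likelihood ratio test, with DESeq2, with library totals only and without the libraries labelled DMSO 12 and Pac H9 (Slc2a3 in each). It also became 1 without the 4 libraries nearer to the other treatment (Slc16a1), without the 7 libraries beyond the gap (Pdhb) and at an adjusted p under 0.05 (Slc2a3). It stayed at 0 with RLE factors, no filter, a stricter filter, the parental library in the fit, log10 total counts as a covariate, thinning to 480919 counts, and without DMSO 11 and Pac C3. Leaving out each of the 29 lines in turn gave 0 to 1 (Slc2a3 without Pac D7 or Pac D10, where 202 and 191 of all genes were called), while the calls over all genes ran from 139 without DMSO 4 to 299 without DMSO 11. A single library moved the estimates of Slc16a3 to -0.71 (without Pac D10), Dlat to -0.24 (without DMSO 11), Slc2a1 to -0.20 (without DMSO 1) and Hk2 to between 0.022 (without Pac H3) and 0.18 (without DMSO 1). The isozyme differences passed 0.05 in the set without the 4 libraries, at -1.64, -1.91 and 0.99 for Slc2a1/Slc2a3, Slc16a3/Slc16a1 and Idh2/Idh1. Leaving these 4 out by its construction sets the treatments farther apart. Without the 7 libraries the estimate for Ldha turned from -0.32 to 0.015 (adjusted p = 0.971, edgeR), and estimates that never passed moved to -0.10 for Slc2a1, -0.38 for Pfkl, -0.017 for Pgk1, -0.22 for Slc16a3, 0.27 for Idh2 and -0.24 for Idh3a. The 7 libraries included the 6 lowest in Ldha, and the cause of these changes was not tested. Over all genes, 208 were called, against 448 with the likelihood ratio test, 493 with DESeq2, 276 with library totals only, 321 without DMSO 12 and Pac H9, 341 without DMSO 11 and Pac C3, 491 without the 4 libraries, 240 without the 7 and 109 when thinned. Library totals only moved the median log2 difference of all genes from 0.07 to 0.19 and the share of calls that were higher to 68.5%. At 480919 counts, the smallest total, 3 counts are 6.23 CPM, above the median of Gapdh in both treatments. Gapdh was also low in the deepest library, DMSO 11, at 23 counts, and the part of depth in its level was not tested. No paired analysis was possible because the treatments share no replicate labels of one origin.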
